A study of Mus musculus with 12 samples.

Results

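The genes described here are those of the proteasome, taken from mouse striatum by their symbols: every gene whose symbol on the array began with Psma to Psmg followed by a number. Of 12393 genes with a probe set of their own, 48 matched. They held 14 subunits of the constitutive core (7 of its alpha rings and 7 of its beta rings), 17 subunits of the regulatory particle, 4 genes of the inducible immunoproteasome and its activator (Psmb8, Psmb9, Psmb10 and Psme1), 3 other regulators, 7 assembly chaperones and Psma8, a core subunit of the testis. The remaining 2, Psmc3ip and Psme3ip1, carry such a symbol but are not proteasome subunits. Psma8 lay between 2.28 and 2.42 on the 12 arrays and did not pass the filter on low values, so 47 genes were tested among 8253. Psme2, which encodes the partner of Psme1 in the activator PA28, shared its only probe set with Psme2b and gave no value of its own.

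Total RNA of the striatum was measured in 12 C57Bl/6 mice, 1 array per mouse, as GCRMA values on the log2 scale. In 6 mutants TIF-IA, a factor that RNA polymerase I needs to start ribosomal RNA synthesis and that is encoded by Rrn3, had been deleted by D1R-Cre, which acts in cells with the D1 dopamine receptor, so that other cells of the tissue kept the gene. The groups were 3 mutants and 3 controls at 9 weeks of age and 3 mutants and 3 controls at 13 weeks. The alleles of the controls are not given in the sources used here, and the series text names 5 arrays per condition in 1 place where 3 per group were analysed. The labels give medium spiny neurons as the cell type, but the arrays held whole tissue: markers of astrocytes averaged 8.35 to 8.58 and markers of microglia 8.46 to 8.93 on the control arrays, next to 11.62 to 12.08 for markers of the spiny neurons.

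The proteasome is a barrel of stacked rings in which beta subunits cut proteins that were tagged with ubiquitin. A regulatory particle at the end of the barrel recognises, unfolds and feeds in the substrate, and dedicated chaperones put the rings together. Under interferon the catalytic subunits Psmb6, Psmb7 and Psmb5 can be exchanged in new particles for Psmb9, Psmb10 and Psmb8, which gives the immunoproteasome. This form yields many of the peptides shown on MHC class I, and in brain it is known mainly from microglia and reactive astrocytes.

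Rrn3 itself was measured at 6.90, 6.96 and 6.91 in mutants and at 8.0, 7.97 and 8.20 in controls at 9 weeks, a difference of -1.13 (adjusted p 0.00747). At 13 weeks it was measured at 7.72, 7.58 and 7.18 in mutants and at 7.96, 7.54 and 8.04 in controls (difference -0.35, adjusted p 0.128). One array stood apart from its group, that of control mouse 3 at 13 weeks. Its mean absolute distance from the average of the other 2 arrays of its group was 0.532 log2 over the 31 core and regulatory particle genes, against 0.0705 to 0.311 for the other arrays. In 17 of these genes it was the lowest of the 3 controls and in 10 the highest, so values at 13 weeks that it moved by over 1.5 times, and calls that it changed, are also given without it. Slc17a6, a gene of thalamic and other excitatory neurons outside the striatum, stood out on 2 arrays, at 7.99 in mutant mouse 3 at 9 weeks and 7.08 in control mouse 1 at 13 weeks. Ttr, a marker of choroid plexus, was at 5.26, 3.35 and 7.32 in mutants and at 2.86, 3.10 and 3.19 in controls at 13 weeks (difference 2.26, adjusted p 0.031). By Xist and Eif2s3y the 3 mutants at 13 weeks were female, as was 1 mouse in each of the other groups. Among the controls at 13 weeks the female was control mouse 3. Values at 13 weeks without it therefore set female mutants against male controls, where genotype and sex cannot be told apart.

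**Figure D1:**
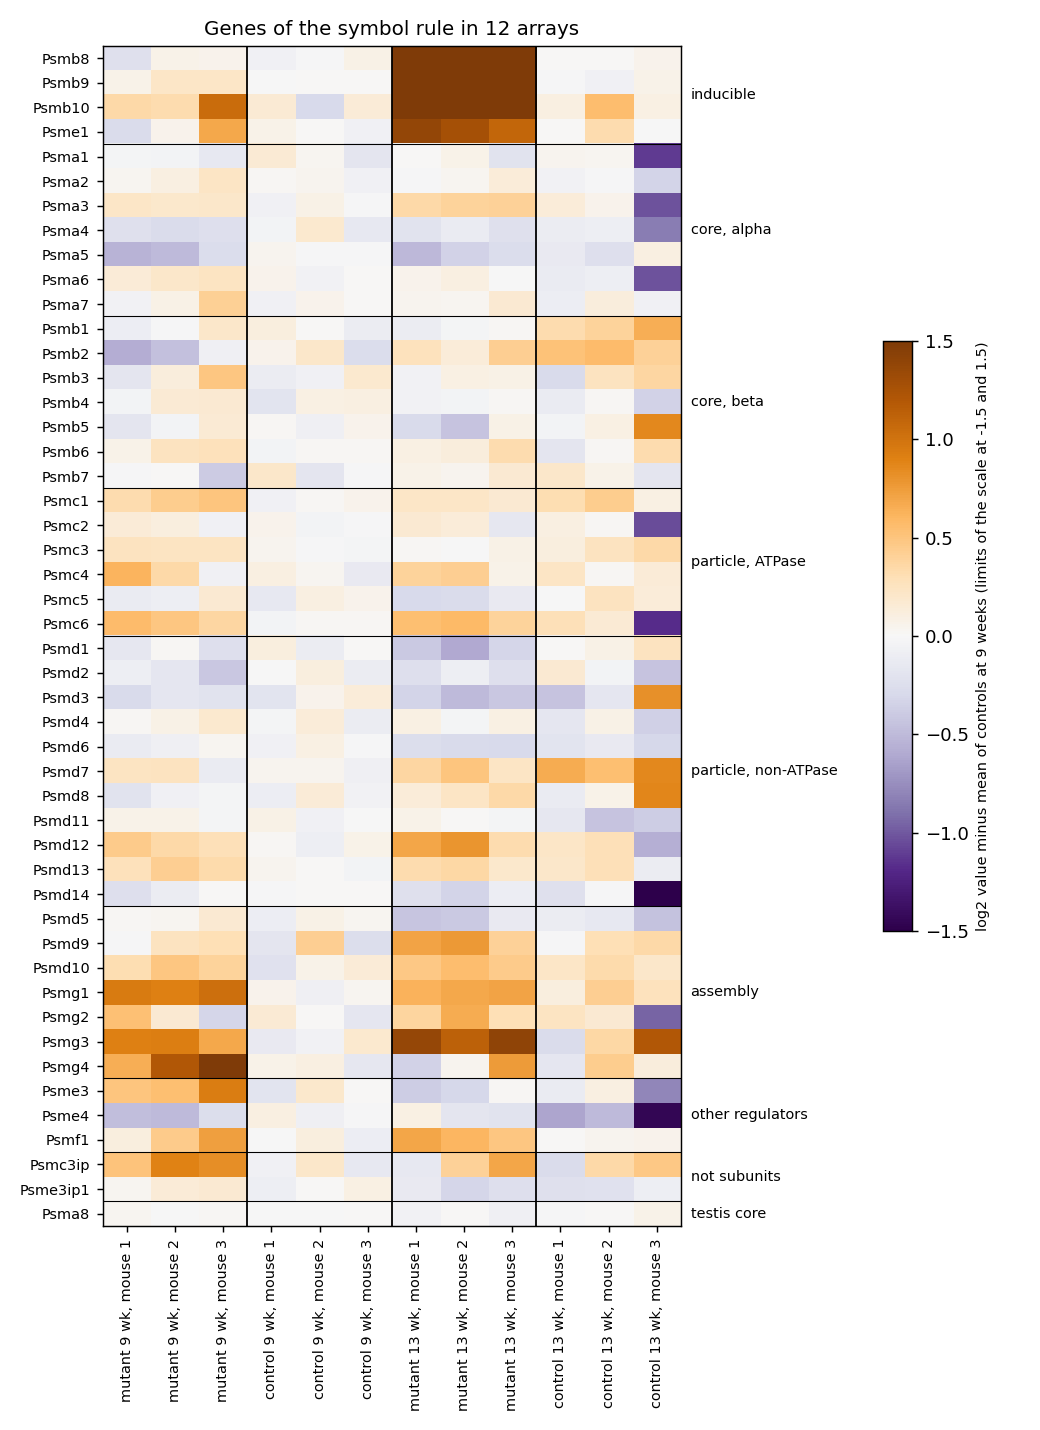
Values of the 48 genes (rows, by subunit group) on the 12 arrays (columns, mutants left of controls at each age) as the log2 value minus the mean of the controls at 9 weeks, orange for higher and purple for lower. The inducible genes are dark orange in the 3 mutants at 13 weeks, and the column of control mouse 3 at 13 weeks stands out among the core and particle genes.

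At 13 weeks all 4 measured genes of the immunoproteasome and its activator were higher in mutants. Psmb8 differed by 4.58 log2 units, Psmb9 by 4.21, Psmb10 by 1.83 and Psme1 by 1.14. At 9 weeks none of the 4 passed the test (limma, 1 at an unadjusted p under 0.05). The starting regions of these 4 genes are printed because the genes moved together. They are RefSeq promoters of GRCm38.p6, from 250 bases before to 50 after the annotated start, 5′ to 3′ on the gene's strand. Capitals mark letters that fit the interferon motifs described after them.
Psmb8 (chr17:34197945-34198244, plus strand): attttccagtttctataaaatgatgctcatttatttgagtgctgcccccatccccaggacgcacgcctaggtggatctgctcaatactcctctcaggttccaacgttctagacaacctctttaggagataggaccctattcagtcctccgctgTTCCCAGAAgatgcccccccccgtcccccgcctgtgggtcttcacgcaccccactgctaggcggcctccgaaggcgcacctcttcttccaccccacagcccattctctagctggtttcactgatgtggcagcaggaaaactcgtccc
Psmb9 (chr17:34187281-34187580, minus strand): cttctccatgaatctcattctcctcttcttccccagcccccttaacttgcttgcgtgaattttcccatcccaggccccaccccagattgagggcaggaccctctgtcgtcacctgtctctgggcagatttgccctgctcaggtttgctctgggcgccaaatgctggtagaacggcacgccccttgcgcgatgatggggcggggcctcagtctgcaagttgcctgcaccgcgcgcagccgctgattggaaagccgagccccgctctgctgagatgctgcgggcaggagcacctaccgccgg
Psmb10 (chr8:105938343-105938642, minus strand): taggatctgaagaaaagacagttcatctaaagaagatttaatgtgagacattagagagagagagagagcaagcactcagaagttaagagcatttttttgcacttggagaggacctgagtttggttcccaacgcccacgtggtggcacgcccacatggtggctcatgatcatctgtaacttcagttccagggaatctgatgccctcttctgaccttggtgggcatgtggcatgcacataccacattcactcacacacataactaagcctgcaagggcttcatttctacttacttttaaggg
Psme1 (chr14:55578244-55578543, plus strand): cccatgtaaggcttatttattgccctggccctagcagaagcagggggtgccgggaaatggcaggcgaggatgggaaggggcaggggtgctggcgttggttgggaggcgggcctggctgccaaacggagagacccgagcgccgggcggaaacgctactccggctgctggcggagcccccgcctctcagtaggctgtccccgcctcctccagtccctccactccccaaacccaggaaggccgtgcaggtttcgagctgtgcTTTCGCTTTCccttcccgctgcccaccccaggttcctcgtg

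The gamma-activated motif TTCNNNGAA, searched on both strands, was found in the Psmb8 window as TTCCCAGAA from -97 to -89. The interferon-stimulated motif GAAANNGAAA was found in the Psme1 window on the opposite strand, printed as TTTCGCTTTC, 9 to 18 bases after the start. Neither motif was found in the windows of Psmb9 and Psmb10. Of all 32851 promoters in the table, 8.3% held the first motif and 3.44% the second. Among the 27 promoters of core and regulatory particle genes, 1 held the first and 2 the second. The table held promoters for 40 of the 48 genes. In the RefSeq annotation of chromosome 17, Psmb9, Tap1, Psmb8 and Tap2 follow each other directly.

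Psmb8 encodes the inducible counterpart of the catalytic subunit Psmb5. At 13 weeks it was measured at 7.99, 7.80 and 6.52 in mutants and at 2.84, 2.84 and 2.89 in controls. Every mutant array lay far above every control array, and mutant mouse 3 was the lowest of the mutants. The measured difference was 4.58 ± 0.30 (log2, SE, n = 3 each; limma, adjusted p 2.98e-07). At 9 weeks it was measured at 2.60, 2.90 and 2.89 in mutants and at 2.77, 2.82 and 2.91 in controls, and the groups overlapped (difference -0.04 ± 0.30, adjusted p 0.969).

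Psmb9, the inducible counterpart of Psmb6, was measured at 6.67, 6.79 and 6.10 in mutants and at 2.30, 2.25 and 2.38 in controls at 13 weeks. The groups were again far apart, with mutant mouse 3 the lowest mutant, and the measured difference was 4.21 ± 0.17 (adjusted p 5.61e-09). At 9 weeks the mutants had 2.38, 2.53 and 2.53 and the controls 2.31, 2.32 and 2.32. These values did not overlap, but the difference of 0.16 ± 0.17 did not pass the test (adjusted p 0.645). Psmb8 and Psmb9 passed their array's 40th percentile only in the 3 mutants at 13 weeks, through which they entered the test, and lay below it on the other 9 arrays. Tested among all genes with no filter on low values, both still passed (adjusted p 8.47e-06 for Psmb8 and 1.52e-07 for Psmb9). Their control values lie at the low end of the scale, where GCRMA does not resolve a level. Set against the mean 40th percentile of the control arrays, 3.55, the mutants lay at least 3.88 log2 higher for Psmb8 and at least 2.97 for Psmb9.

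Psmb10, the inducible counterpart of Psmb7, was over the percentile on all 12 arrays. It was measured at 8.62, 8.68 and 8.10 in mutants and at 6.49, 6.95 and 6.48 in controls at 13 weeks, without overlap, and differed by 1.83 ± 0.24 (adjusted p 1e-04). At 9 weeks it was measured at 6.74, 6.72 and 7.44 in mutants and at 6.55, 6.09 and 6.54 in controls. Each mutant lay above each control, with mutant mouse 3 the highest, but the difference of 0.57 ± 0.24 did not pass (adjusted p 0.205). Psme1, the alpha subunit of the PA28 cap that opens the barrel, was measured at 10.67, 10.56 and 10.38 in mutants and at 9.30, 9.61 and 9.28 in controls at 13 weeks. The groups did not overlap, and the difference was 1.14 ± 0.22 (adjusted p 0.00122). At 9 weeks its values were 9.02, 9.34 and 9.98 in mutants and 9.36, 9.29 and 9.22 in controls, with the lowest and the highest value both in mutants.

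The genotype difference itself changed between the ages for these 4 genes, by 4.62 for Psmb8 (adjusted p 1.35e-05), 4.05 for Psmb9 (adjusted p 4.49e-07), 1.25 for Psmb10 (adjusted p 0.0259) and 0.98 for Psme1 (adjusted p 0.0447). Among all genes 18.4% passed this test, 12.1% with a higher and 6.37% with a lower difference at 13 weeks. Psme4 was the other proteasome gene that passed. Without control mouse 3 at 13 weeks Psmc1 (-0.60, adjusted p 0.016), Psme3 (-0.865, adjusted p 0.029) and Psmg1 (-0.55, adjusted p 0.0367) passed as well, while Psme1 did not (adjusted p 0.0572). The call for Psmb10 was lost without any of 6 single arrays, with an adjusted p of up to 0.073, and that for Psme1 without any of 9, with one of up to 0.11. The call for Psme1 was also lost with quantile normalization, median centring, no filter on low values and the replicate block. For Psmb8 and Psmb9 the size of the change rests on values at the low end of the scale. At 13 weeks the differences of all 4 passed without any single array.

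**Figure D2:**
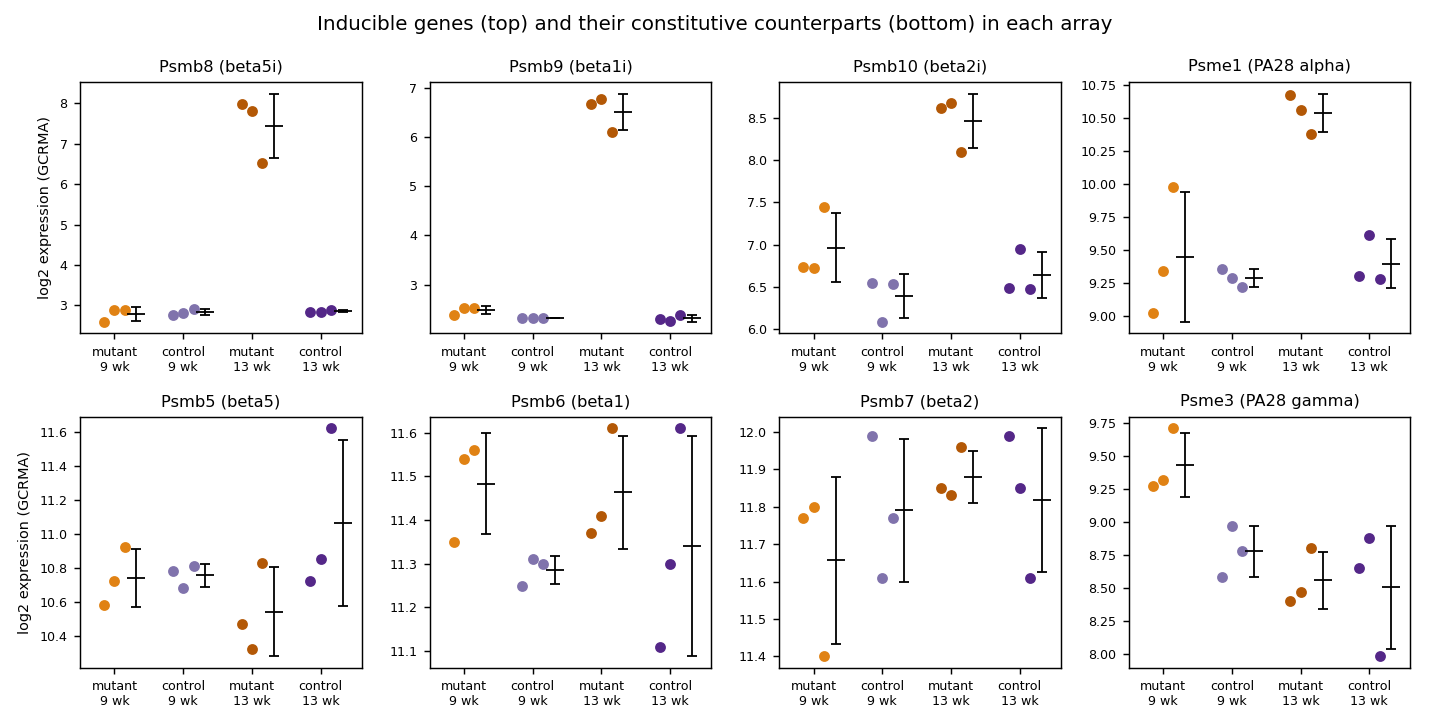
Log2 expression on each array (points) with the group mean and SD (black, n = 3) for the 4 inducible genes in the upper row and for Psmb5, Psmb6, Psmb7 and Psme3 in the lower row, each panel on its own axis. The mutants at 13 weeks stand above the other groups in the upper row, and the groups overlap at 13 weeks in the lower row.

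The constitutive catalytic subunits did not pass the test at either age in the fit as reported. Psmb5, which carries the chymotrypsin-like activity, was measured at 10.47, 10.32 and 10.83 in mutants and at 10.72, 10.85 and 11.62 in controls at 13 weeks. The groups overlapped, the highest value being that of control mouse 3, and the difference was -0.52 ± 0.23 (adjusted p 0.0801). Without that mouse it was -0.25 (adjusted p 0.245), while it passed with the replicate block (adjusted p 0.0346), with array weights (adjusted p 0.0206) and with median centring (adjusted p 0.0322). Psmb6, with the caspase-like activity, differed by 0.12 ± 0.15 (adjusted p 0.539), and Psmb7, with the trypsin-like activity, by 0.06 ± 0.17 (adjusted p 0.776). Without control mouse 3 they differed by 0.26 for Psmb6 and -0.04 for Psmb7, again short of the test. At 9 weeks the 3 differed by -0.02, 0.20 and -0.13 in the order Psmb5, Psmb6 and Psmb7.

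Within each array the inducible gene was then set against its constitutive counterpart, relative to the mean of the controls of the same age. Psmb8 minus Psmb5 ranged from 3.90 to 5.73 in mutants and from -0.52 to 0.33 in controls at 13 weeks, a mean shift of 5.10 log2. For Psmb9 minus Psmb6 the mean shift was 4.09, and for Psmb10 minus Psmb7 it was 1.76, with 1.32 to 2.03 in mutants and -0.32 to 0.28 in controls. At 9 weeks the shifts were -0.02, -0.03 and 0.71 in the same order. Without control mouse 3 the shifts at 13 weeks were 4.84, 3.99 and 1.79. These shifts describe unequal change of 2 transcripts and carry no test, and for Psmb8 and Psmb9 they rest on control values at the low end of the scale.

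At 13 weeks 13 of the 47 genes passed the test, 27.7%, when 45.4% of all genes did. Psmb8 and Psmb9 are among them and entered through the mutants of that age alone. Of these, 11 were higher and 2 lower in mutants, and 23.4% of all genes were higher and 21.9% lower. The constitutive core and the regulatory particle made up 5 of the 13 calls, from 31 genes: Psma3, Psmd11 and Psmd12 were higher and Psmb1 and Psmd1 lower. That is 16.1% of these genes, a lower share than over all genes. Their median difference was 0.10, against 0.00 over all genes, and their differences lay between -0.55 and 0.75. With each array centred on its median instead, 5 of the 47 were higher and 7 lower. The higher ones were then the 4 inducible genes and Psme4, and the lower ones Psma5, Psmb1, Psmb5, Psmc3, Psmc5, Psmd1 and Psmd7. Centring moved the median of all genes to -0.16, so the balance between small rises and falls rests on the scaling.

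**Figure D3:**
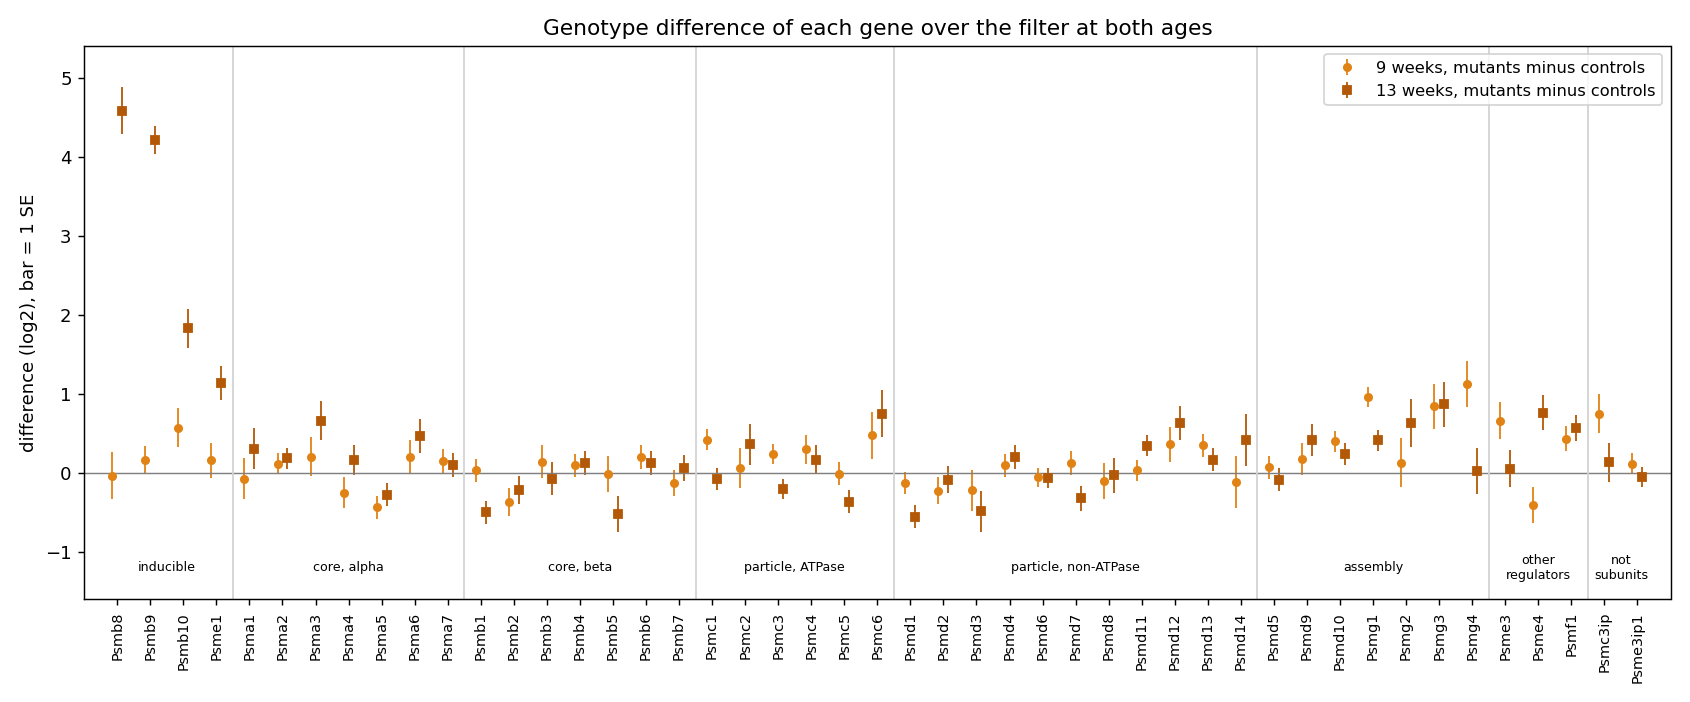
Mutants minus controls (log2, bars 1 SE from limma) at 9 weeks (circles) and at 13 weeks (squares) for the 47 genes over the filter, by subunit group. The inducible genes reach 4.58 at 13 weeks, while core and particle genes lie between -0.55 and 0.75.

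In the alpha rings, which gate the barrel, 1 of 7 genes passed at 13 weeks. Psma3 was measured at 12.54, 12.59 and 12.60 in mutants and at 12.33, 12.25 and 11.17 in controls. The groups did not overlap, and control mouse 3 lay about a whole unit below the other controls. The difference was 0.66 ± 0.25 (adjusted p 0.0477), and without that mouse it was 0.29 (adjusted p 0.0469). The call was lost without any of 9 other single arrays, with median centring, with no filter on low values and in a fit of the compared groups alone (adjusted p up to 0.151). Psma6 (0.46, adjusted p 0.0988), Psma5 (-0.28, adjusted p 0.142) and Psma2 (0.18, adjusted p 0.292) did not pass, and without control mouse 3 they differed by 0.16, -0.18 and 0.09 in that order. In the beta rings Psmb1, a structural subunit, was the 1 of 7 that passed. It was measured at 11.35, 11.43 and 11.48 in mutants and at 11.79, 11.86 and 12.11 in controls. All mutants lay below all controls, by 0.50 ± 0.14 on average (difference -0.50, adjusted p 0.0147). With the mean of all its probe sets, of which the others lay below the filter, the difference was -0.30 (adjusted p 0.067). The call of Psmb1 was also lost in a fit of the compared groups alone (adjusted p 0.0534) and without mutant mouse 1 (adjusted p 0.0554). Psmb2 (-0.22, adjusted p 0.327) and Psmb4 (0.12, adjusted p 0.523, and 0.03 without control mouse 3), both structural as well, did not pass.

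None of the 6 genes of the ATPase ring, which unfolds the substrate, passed at 13 weeks in the fit as reported. The smallest adjusted p values were 0.0587 for Psmc5 (difference -0.36) and 0.0609 for Psmc6 (0.75), both with an unadjusted p under 0.05. Psmc6 had 11.13, 11.17 and 10.98 in mutants and 10.87, 10.75 and 9.41 in controls. There the value of control mouse 3 was more than a unit below the others, and without it the difference was 0.28. On the other probe sets of Psmc6 over the filter the difference with all arrays was -0.20 and 0.32. Psmc5 did pass with the replicate block (adjusted p 0.0497), median centring, no filter, the mean of all probe sets, a trended and robust prior or array weights, and Psmc6 with the replicate block (adjusted p 0.0467), array weights or a term for sex. Psmc3 (-0.21) and Psmc2 (0.36, and -0.01 without control mouse 3) did not pass either. Among the 11 non-ATPase subunits, 3 passed. Psmd1, a large scaffold of the particle's base, was measured at 10.49, 10.29 and 10.58 in mutants and at 10.90, 10.97 and 11.15 in controls. The groups did not overlap, and the difference of -0.55 ± 0.14 (adjusted p 0.00829) kept its call under all alternatives run.

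Psmd12 and Psmd11, both subunits of the particle's lid, were higher in mutants. Psmd12 was measured at 10.88, 10.97 and 10.51 in mutants and at 10.40, 10.47 and 9.61 in controls, and mutant mouse 3 lay only just above the higher controls. Its difference was 0.63 ± 0.22 (adjusted p 0.0343), and without control mouse 3 it was 0.35 (adjusted p 0.071). The call was also lost without mutant mouse 1 or 2 of that age, with median centring, with no filter on low values and in a fit of the compared groups alone (adjusted p up to 0.121). Psmd11 had 10.37, 10.31 and 10.27 in mutants and 10.14, 9.86 and 9.92 in controls, without overlap, and differed by 0.34 ± 0.13 (adjusted p 0.0481, and 0.0538 without control mouse 3). With the mean of all probe sets, some of them below the filter, it was 0.20 (adjusted p 0.147), and with a term for sex it did not pass. The call of Psmd11 was also lost with median centring, the replicate block and a fit of the compared groups alone (adjusted p up to 0.266). With single arrays left out it held in 2 of 12 fits. Psmd7, a lid subunit that pairs with the deubiquitinase Psmd14, differed by -0.32 (adjusted p 0.106). Counted without a threshold, mutants and controls did not overlap at 13 weeks in 5 of the 31 core and particle genes with mutants higher and in 6 with mutants lower, when 27.8% and 26.8% of all genes showed such separation in these directions (54.6% in either).

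Leaving out control mouse 3 at 13 weeks left 3 of the 31 called at that age (Psma3, Psmb1 and Psmd1), of 11 among the 47, when 47.9% of all genes passed. The 31 differences then ranged from -0.48 to 0.35 with a median of -0.04, against 0.10 with the mouse. All 4 inducible genes still passed. This fit sets female mutants against male controls at 13 weeks, so genotype and sex cannot be told apart in it.

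**Figure D4:**
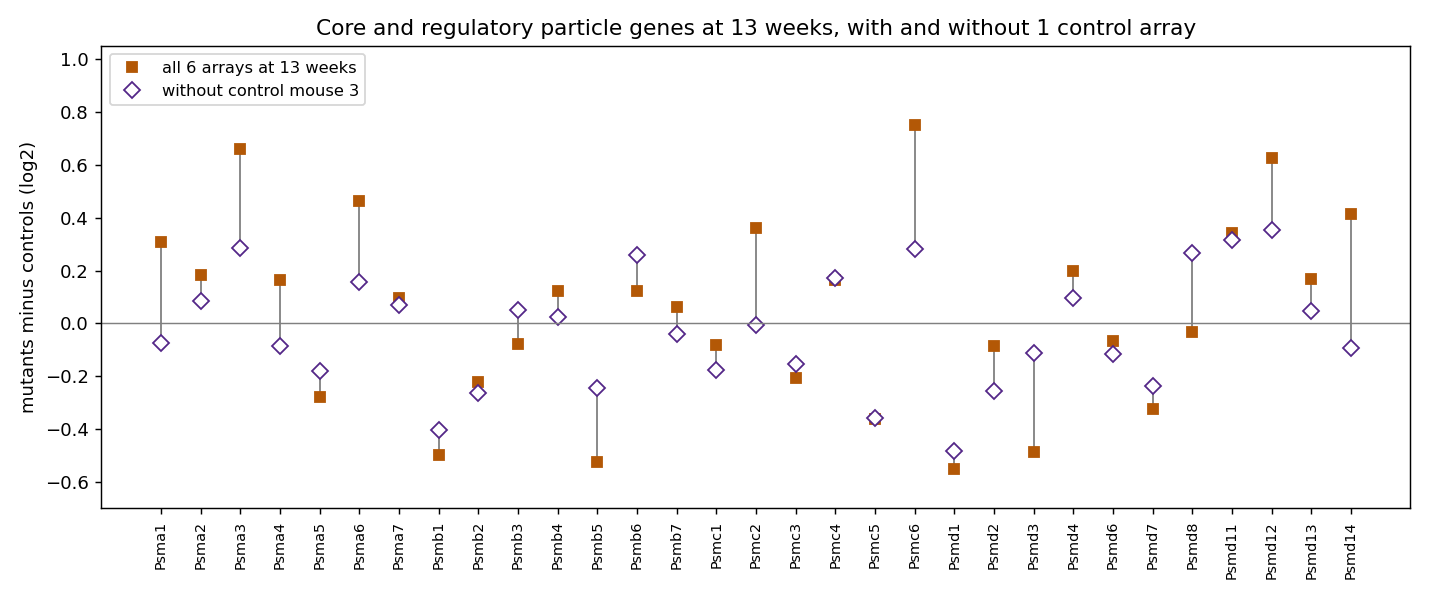
Mutants minus controls at 13 weeks (log2) for the 31 core and regulatory particle genes with all 6 arrays of that age (squares) and without control mouse 3 (open diamonds), joined by a line per gene. Differences span -0.55 to 0.75 with the mouse and -0.48 to 0.35 without it, and Psmc6, Psmd14, Psmd3 and Psma1 are among the genes that move most.

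Among the other regulators, Psme4 and Psmf1 were higher in mutants at 13 weeks. Psme4 encodes PA200, a nuclear cap of the core that works without ubiquitin. It was measured at 8.77, 8.5 and 8.47 in mutants and at 8.05, 8.18 and 7.23 in controls at 13 weeks, with no overlap (difference 0.76 ± 0.22, adjusted p 0.0154). Without control mouse 3, the lowest, it was 0.47 (adjusted p 0.0178), and the call was lost without mutant mouse 1 (adjusted p 0.0649) and in a fit of the compared groups alone (adjusted p 0.0731). At 9 weeks the order was the opposite, with 8.21, 8.18 and 8.43 in mutants and 8.78, 8.60 and 8.66 in controls, but the difference of -0.41 ± 0.22 did not pass (adjusted p 0.322). From 9 to 13 weeks Psme4 differed by -0.86 in controls (adjusted p 0.121) and by 0.31 in mutants (adjusted p 0.324), neither past the test. The larger part of its change between the ages thus lay in the controls. The change of the genotype difference between the ages was 1.17 ± 0.32 (adjusted p 0.0229), and without control mouse 3 at 13 weeks it was 0.87 (adjusted p 0.007). That call was lost without any of 4 single arrays, with an adjusted p of up to 0.0658. Both other probe sets of Psme4 over the filter differed the same way, by 0.77 and 0.44 at 13 weeks and by -0.42 and -0.49 at 9 weeks.

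Psmf1 encodes PI31, known as an inhibitor of the isolated core and as an adaptor that carries proteasomes along axons in fly and mouse neurons. It was measured at 8.38, 8.29 and 8.17 in mutants and at 7.69, 7.72 and 7.74 in controls at 13 weeks, a clear separation of 0.56 ± 0.16 (adjusted p 0.0146). That call was lost with median centring and without mutant mouse 1 of that age (adjusted p up to 0.0733). At 9 weeks Psmf1 had 7.80, 8.13 and 8.42 in mutants and 7.68, 7.79 and 7.58 in controls (difference 0.43 ± 0.16, adjusted p 0.148). Psme3, the nuclear activator PA28 gamma, was measured at 9.27, 9.32 and 9.71 in mutants and at 8.58, 8.97 and 8.78 in controls at 9 weeks, apart but short of the test (difference 0.66 ± 0.23, adjusted p 0.128). At 13 weeks its groups overlapped and the difference was 0.05 (adjusted p 0.867, and -0.21 without control mouse 3).

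The assembly chaperones held the only calls at 9 weeks. Psmg1 and Psmg4 were higher in mutants, 2 of 47 genes or 4.26%, when 5% of all genes passed, 2.02% higher and 2.98% lower. None of the 31 core and particle genes passed at that age (limma, 3 at an unadjusted p under 0.05), and their median difference was 0.06, against -0.02 over all genes. Psmg1 forms with Psmg2 the dimer on which the alpha ring is built. It was measured at 9.12, 9.09 and 9.21 in mutants and at 8.23, 8.10 and 8.21 in controls at 9 weeks. The 2 groups lay almost a whole log2 unit apart with little spread, and the difference of 0.96 ± 0.13 (adjusted p 0.004) passed under all alternatives run. At 13 weeks Psmg1 had 8.81, 8.87 and 8.89 in mutants and 8.29, 8.61 and 8.44 in controls (difference 0.41 ± 0.13, adjusted p 0.0235, lost with a term for sex, with median centring, in a fit of the compared groups alone and without any of 4 single arrays). The drop of -0.55 between the ages did not pass (adjusted p 0.06). It did pass without control mouse 3 (adjusted p 0.0367) or control mouse 1 (adjusted p 0.0402) at 13 weeks. It also passed with median centring, no filter on low values, the mean of all probe sets and array weights (adjusted p down to 0.00639).

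Psmg4, which pairs with Psmg3 in the second chaperone dimer of the alpha ring, was measured at 6.19, 6.75 and 7.05 in mutants and at 5.61, 5.64 and 5.38 in controls at 9 weeks. All mutants lay above all controls, and the difference of 1.12 ± 0.29 passed narrowly (adjusted p 0.0483), but not without any of 8 single arrays. At 13 weeks its groups overlapped, with 5.20, 5.58 and 6.30 in mutants and 5.37, 5.98 and 5.67 in controls. Psmg3 was measured at 7.25, 7.26 and 7.03 in mutants and at 6.21, 6.29 and 6.52 in controls at 9 weeks, apart by 0.84 ± 0.29 but not past the test (adjusted p 0.117). At 13 weeks it had 7.70, 7.47 and 7.74 in mutants and 6.07, 6.70 and 7.54 in controls. The groups overlapped at control mouse 3, the difference of 0.87 ± 0.29 passed (adjusted p 0.028), and without that mouse it was 1.25 (adjusted p 0.000316). With a term for sex it was 0.53 (adjusted p 0.139). The call of Psmg3 at 13 weeks was also lost with median centring, with no filter on low values and in a fit of the compared groups alone (adjusted p up to 0.104). With single arrays left out this call held in 8 of 12 fits.

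All 7 chaperones had a positive difference at 9 weeks, with a median of 0.40, and 4 of them lay higher in mutants without overlap, when 35.5% of all genes were separated, 15% with mutants higher and 20.6% with mutants lower. Psmg2 (0.13) and Psmd9 (0.18), a chaperone of the ATPase ring, were among those that did not pass at 9 weeks. At 13 weeks they differed by 0.63 (adjusted p 0.114, and 0.24 without control mouse 3) and 0.42 (adjusted p 0.112). Without control mouse 3 at 13 weeks, which enters the shared estimate of the spread, 10 of the 47 genes passed at 9 weeks, when 16.5% of all genes did. These were Psmd10, Psmg1, Psmg3, Psmg4, Psmc1, Psmc6, Psmd13 and Psme3, which were higher in mutants, and Psma5 and Psme4, which were lower. With all arrays Psmc6 differed by 0.47 at 9 weeks on the probe set used, but by 0.01 and -0.41 on its others over the filter.

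**Figure D5:**
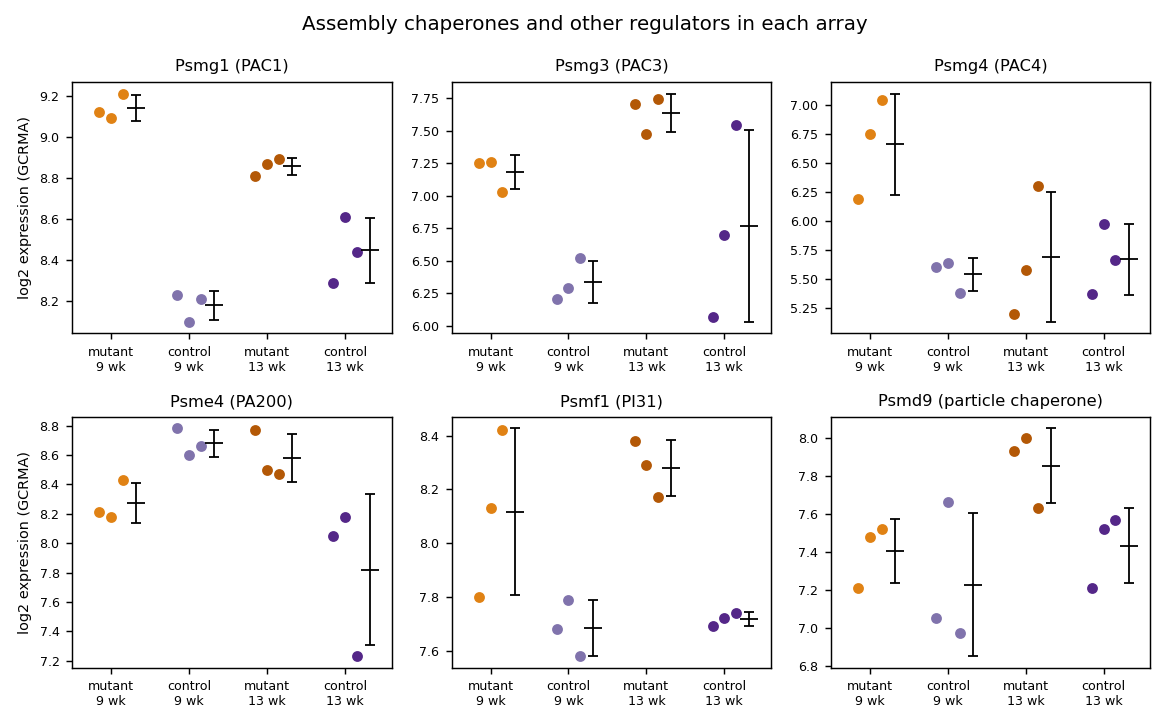
Log2 expression on each array (points) with the group mean and SD (black, n = 3) for 4 assembly chaperones and for Psme4 and Psmf1, each panel on its own axis. Mutants at 9 weeks stand above controls for Psmg1, Psmg3 and Psmg4, and Psme4 lies below controls at 9 weeks and above them at 13 weeks.

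Between 9 and 13 weeks the mutants changed in 7 of the 47 genes, when 32.7% of all genes passed this comparison, 16.1% higher and 16.6% lower. The 4 inducible genes rose, by 4.64 for Psmb8, 4.04 for Psmb9, 1.5 for Psmb10 and 1.09 for Psme1. Psmb2 rose by 0.65 (adjusted p 0.014), while Psme3 fell by 0.88 (adjusted p 0.0127) and Psmg4 fell by 0.97 (adjusted p 0.0227). In controls Psmb2 was higher at 13 weeks as well, by 0.50, short of the test (adjusted p 0.203). The change of its genotype difference between the ages was 0.15 and did not pass (adjusted p 0.708). With median centring 4 genes were higher and 8 lower in this comparison, and the median of all genes moved to -0.25, against -0.10 with the values as deposited. In controls none of the 47 passed the comparison of the ages (limma, 5 at an unadjusted p under 0.05), when 0.145% of all genes passed, 0.0848% higher and 0.0606% lower. These comparisons share their arrays with those between the genotypes.

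Proteasome partners outside the symbol rule moved in both directions at 13 weeks, 2 of 18 higher and 4 lower, when 23.4% of all genes were higher and 21.9% lower. Without control mouse 3 at 13 weeks 2 were higher and 7 lower. Nfe2l2, a transcription factor of the oxidative stress response, was measured at 9.94, 9.95 and 9.16 in mutants and at 7.37, 7.57 and 6.19 in controls (difference 2.64, adjusted p 5.02e-05). Nfe2l1, the related factor that raises proteasome subunit genes when proteasomes are inhibited, was measured at 6.85, 7.10 and 7.19 in mutants and at 7.85, 7.61 and 9.66 in controls. It lay lower in all mutants, with control mouse 3 far above the other controls (difference -1.33, adjusted p 0.0204). At 9 weeks Nfe2l1 also lay lower in all mutants, but the difference of -0.73 did not pass (adjusted p 0.333). Without control mouse 3 the difference at 13 weeks was -0.68 and still passed. That call was lost with no filter on low values, in a fit of the compared groups alone and without mutant mouse 1 or 2 of that age (adjusted p up to 0.0884). Ube3c, a ubiquitin ligase that works on the proteasome (-0.92), Ubqln4, a shuttle for tagged proteins (-0.76), and Ecpas, which in yeast is known to bind core and particle together (-0.49), were lower as well. The other called partner was Akirin2, an adaptor that brings proteasomes into the nucleus (0.60, adjusted p 0.0257), which was higher but lost its call without control mouse 3.

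Of 12 genes of antigen presentation, 9 were higher in mutants at 13 weeks and none lower, when 23.4% of all genes were higher and 21.9% lower. The 12 were genes of peptide loading and MHC class I and the transcription factor Irf1. Irf1 was among the 9, and its controls at 13 weeks lay near the 40th percentile, at 3.75, 3.73 and 3.43. Tap1 and Tap2, the neighbours of Psmb8 and Psmb9 that carry peptides into the endoplasmic reticulum, differed by 3.75 and 2.27. Erap1, which trims those peptides, differed by 3.52, B2m, the class I light chain, by 3.33, and the heavy chains H2-D1 and H2-K1 by 4.30 and 3.79. Tap1, Tap2 and Erap1, which are among the 9, were over the percentile only in the mutants at 13 weeks and entered the test through them. Their control values have no resolved level and the differences no exact size. Set against the mean 40th percentile of the control arrays, 3.55, the mutants lay at least 2.39, 0.84 and 2.19 log2 higher in that order. Calr, a chaperone of loading, was the 1 gene of this list called at 9 weeks (-0.79, adjusted p 0.0251). At 13 weeks mutant mouse 3, lowest of the mutants for Psmb8, Psmb9, Psmb10 and Psme1, was also the lowest for 9 of these 12 genes, the others being Tap2, Irf1 and Calr.

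Markers of several cell types moved with these genes at 13 weeks, when 23.4% of all genes were higher and 21.9% lower. Of the microglia list 9 of 10 were higher, its mean level lying between 11.14 and 11.5 in mutants and between 8.65 and 8.93 in controls. Of the astrocyte list 7 of 7 were higher, with 10.85 to 11.09 in mutants and 8.37 to 8.58 in controls. Of the spiny neuron list 9 of 9 were lower, with 8.80 to 9.79 in mutants and 11.62 to 12.08 in controls, and of the general neuronal list 7 of 8 (5 of 8 without control mouse 3). Of the endothelial list 3 of 4 tested were higher (Cldn5, Flt1 and Vwf), with a mean level of 5.29 to 5.73 in mutants and 3.71 to 4.44 in controls. The 7 lymphocyte markers with a probe set lay below the filter, with means of 2.41 to 2.44 in mutants and 2.47 to 2.57 in controls. None of the 5 oligodendrocyte markers passed (limma, 2 at an unadjusted p under 0.05). In whole tissue fewer cells of a type and less RNA per cell cannot be told apart, and the part of these markers in the proteasome results was not tested. At 9 weeks mutant mouse 3, highest of its group for Psmb10 and Psme1, also had the highest mean of the microglia list, 9.30, against 8.49 and 8.79 in the other 2 mutants. It was also highest for the lists of astrocytes, 9.06, oligodendrocytes, 12.47, and thalamus and choroid plexus, 5.78. It was lowest for those of spiny neurons, 10.94, general neurons, 9.97, and endothelium, 3.80. In this mouse the list of thalamus and choroid plexus was raised by Slc17a6, 7.99, and Calb2, 7.74, while Ttr, the marker of choroid plexus, was at 3.03. How these levels relate to Psmb10 and Psme1 was not tested.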

How the data were processed

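Striatal RNA of 12 mice was measured on Affymetrix arrays. QIAgen reagents were used for the RNA, per the labels, and per the submitters' processing notes the signals were processed with GCRMA. The deposited values, 22690 probe sets between 1.09 and 15.48, are on the log2 scale and were used without further normalization. The version of GCRMA and the genome build are not given in the sources used here.

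Of the probe sets, 20380 had a single symbol in GEO's platform annotation, 691 had several, 1555 had none and 64 were array controls. The probe set of highest mean over the arrays stood for its gene, which was kept if above its array's 40th percentile, 3.51 to 3.81, in at least 3 arrays. One model over the 4 groups was fitted by limma 3.58.1 under R 4.3.3 (lmFit and eBayes, 8 residual degrees of freedom, two-sided). P-values were adjusted over 8253 genes by Benjamini-Hochberg, and genes passed under 0.05. Differences are mutants minus controls, or 13 minus 9 weeks, on the log2 scale. The labels call the replicates biological. The number of arrays limits the precision. The procedure was tested on simulated data.

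Among 16 of the 48 genes with other probe sets over the filter, 0 had one that differed the opposite way by 0.5 or more at either age. Smaller opposite differences fall under this cut, such as -0.41 against 0.47 for Psmc6 at 9 weeks. The members, lists and alternatives were chosen with earlier results of these data known. Named genes were the inducible genes and their counterparts, genes called at 9 weeks or for the change between ages, up to 4 per subunit group and up to 5 per partner list by smallest p at 13 weeks. Akirin2, Tap1 and Calr, the other called members, the endothelial markers and the genes that complete a count fall outside this rule. So do the markers of thalamus and choroid plexus. All of these were named after their values were seen. Alternatives were other scalings, filters, probe set means, priors, array weights, thresholds, a replicate block, a sex term, the compared groups alone and each array left out. Bounds for genes below the percentile in controls used the mean 40th percentile of the control arrays. Promoter windows came from RefSeq tables of GRCm38.p6.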

Additional observations from a re-analysis of the deposited data

Results flagged for a closer look

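For 11 genes the genotype difference changed between 9 and 13 weeks by the test of that change in limma, with 13-week minus 9-week values on the log2 scale. Among proteasome genes the change was 4.62 for Psmb8, 4.05 for Psmb9, 1.25 for Psmb10, 0.98 for Psme1 and 1.17 for Psme4. Among partners and genes of antigen presentation it was 2.47 for Nfe2l2, 3.50 for Erap1, 2.98 for B2m, 2.25 for Tap2, 3.74 for H2-D1 and 3.04 for H2-K1. For Psmb8, Psmb9, Erap1 and Tap2 the sizes rest on values below the 40th percentile in the other 9 mice.

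A probe set outside the comparisons, because it is annotated to both Psme2 and Psme2b, was measured at 10.04, 9.93 and 9.77 in mutants and at 8.69, 8.93 and 8.76 in controls at 13 weeks. All mutants lay above all controls, by 1.12 ± 0.18 (limma over all probe sets, adjusted p 0.000366). At 9 weeks it differed by 0.41 (adjusted p 0.229). The signal cannot be given to either gene.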

How the results depend on the processing

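At 13 weeks the calls of Psmb8, Psmb9, Psmb10, Psme1 and Psmd1 held under every alternative run, as did that of Psmg1 at 9 weeks, except that Psmb8 and Psmb9 give no value with a 60th percentile filter. The number of proteasome genes called at 9 weeks, 2 as reported, was 1 with quantile normalization, median centring, the 60th percentile filter, a trended and robust prior or a threshold of 0.01, 7 in a fit of the compared groups alone and 16 with array weights. At 13 weeks, 13 as reported, it was 6 in a fit of the compared groups and 5 at the 0.01 threshold. For the change between ages, 5 as reported, it was 3 with the 60th percentile filter, 13 with array weights and 2 at the 0.01 threshold. For age in mutants, 7 as reported, it was 12 with median centring, 12 with no filter, 21 with array weights and 4 at the 0.01 threshold, and for age in controls it was 4 with array weights and 0 as reported. For the change between ages, median centring gave 4 higher and 3 lower.

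Leaving out each array in turn gave 1 to 10 calls at 9 weeks, 5 to 15 at 13 weeks, 2 to 7 for the change, 5 to 11 for age in mutants and 0 to 0 for age in controls. At 13 weeks the lowest count, 5, was that without mutant mouse 1, and at 9 weeks and for age in mutants the highest, 10 and 11, were those without control mouse 3 at 13 weeks. At 9 weeks 1 gene passed without any single mouse of that age, and likewise when mouse 2 of either group at 13 weeks was left out. For the change, 2 passed without mutant mouse 2 or control mouse 1 of the younger mice or mutant mouse 1 of the older, and 3 without mutant mouse 1 or control mouse 3 of the younger or mutant mouse 2 of the older. The cause was not tested. The deviations of mice with the same number correlated at -0.0729 to 0.0744 at 9 weeks and at 0.0952 to 0.184 at 13 weeks. Not every pair exceeded 0.1 at either age, so the numbers were not taken to pair the mice. With the replicate block, which added the calls of Psmb5, Psmc5, Psmc6 and Psmg2 at 13 weeks and lost that of Psmd11, 3, 16, 4, 7 and 0 genes passed at 9 weeks, at 13 weeks, for the change, for age in mutants and for age in controls. Signal over background limits Psmb8, Psmb9, Tap1, Tap2 and Erap1, which lie at the low end of the scale in controls.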
